A study of Mus musculus with 34 samples.

Results

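The transcriptome of the stromal vascular fraction (SVF) of perigonadal fat was compared between male C57BL/6J mice after 34 weeks on a high fat diet (HFD) and mice of the same age on control chow (CHOW). The comparison took in every library of the 34 week table, 6 HFD and 7 CHOW, which is 13 of the 34 libraries of the study. The HFD held 60% kcal from fat (D12492), and the control diets were D12450B or D12450K. Both diets began at 6 weeks of age, and all mice were fasted for 6 hours before harvest. The question was what a long period of HFD does to the non-adipocyte cells of the fat pad. The SVF is the pellet of cells left after collagenase digestion and a spin that floats the adipocytes away, and erythrocytes were lysed before poly(A) RNA was taken for stranded libraries. Values are TPM, a measure of transcript abundance, which is scaled to transcript length and sums to 1000000 in each library, so a large amount of 1 kind of RNA lowers the value of all others. Libraries are named by diet and replicate number. The labels do not say which control diet a CHOW library had, or that each library was 1 mouse, so p-values measure the spread between libraries.

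Visceral fat holds resident macrophages, mast cells, lymphocytes, endothelial cells and fibroblast-like progenitors between its adipocytes. In obesity macrophages gather around dying adipocytes and take up lipid, and these cells are marked by Trem2, Cd9 and Itgax. Mast cells are tissue-resident cells full of granules that hold proteases, histamine and heparin, and they release them when IgE bound to the high-affinity receptor FcεRI is cross-linked.

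Of 32098 genes listed, 13982 reached 1 TPM in at least 6 libraries and were tested with limma on log2(TPM + 1), so that fold changes understate those of low genes. At an adjusted p under 0.05, 34 genes passed (0.243% of those tested), all of them higher on HFD. Their adjusted p-values (limma, Benjamini-Hochberg) lay between 0.0171 and 0.0481, and their log2 fold changes between 0.80 and 3.70. Single libraries of the 2 diets did not overlap for 25 of the 34, a count that the choice by p favors. Among all genes tested, 103 higher on HFD (0.737%) and 28 lower on HFD (0.200%) did not overlap. The median log2 fold change of all tested genes was 0.10, with 9031 of the 13982 above 0, and without CHOW 5, 6 and 7 it was 0.02, with 7423 above 0. Depth is not known from TPM values.

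The SVF was present in every library, with Ptprc, the leukocyte antigen CD45, at 26.9 TPM or more and the endothelial gene Pecam1 at 86.8 TPM or more. Adipocyte RNA stood far higher in 3 of the CHOW libraries than in the other 10. The summed TPM of 25 adipocyte genes was 23782, 79094 and 28481 in CHOW 5, 6 and 7, between 3365 and 8729 in the other CHOW libraries, and between 3187 and 6297 on HFD. Adipoq, which encodes adiponectin, had a median of 273 TPM in CHOW (35.3 to 5439) and 40.7 TPM on HFD (27.3 to 88.2). All 23 adipocyte genes that could be tested had a log2 fold change below 0, 16 of them with an unadjusted p under 0.05 (3.53% of all genes tested were lower on HFD at that level) and none past the adjusted threshold. Without CHOW 5, 6 and 7 their median moved from -2.03 to -0.46. Of the 23, 21 stayed below 0 in that fit, 4 of them with an unadjusted p under 0.05 (3.83% of all genes). Values without these 3 libraries are therefore given beside the list medians and the main genes. Leaving them out did not remove all adipocyte RNA from CHOW. Adipoq stood at 158 TPM in CHOW 1 and 273 TPM in CHOW 3, and at 35.3 and 37.9 TPM in CHOW 2 and CHOW 4. The part of adipocyte RNA in the results was not tested. Germ cell RNA stood high in HFD 1 and HFD 2. The germ cell list summed to 6032 and 6445 TPM there. It summed to 29.8 to 437 TPM in the other HFD libraries and to 1.41 to 69.1 TPM in CHOW. Its 10 tested genes had a median log2 fold change of 3.24. All 10 were higher on HFD at an unadjusted p under 0.05 (9.69% of all genes), with none past the adjusted threshold. Of 4 tested genes of the epididymis and seminal vesicle list, 3 were higher at that p and none passed. Their median was 1.82, or 1.77 without CHOW 5, 6 and 7. The part of germ cell, epididymis and seminal vesicle RNA in the results was not tested.

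**Figure D1:**
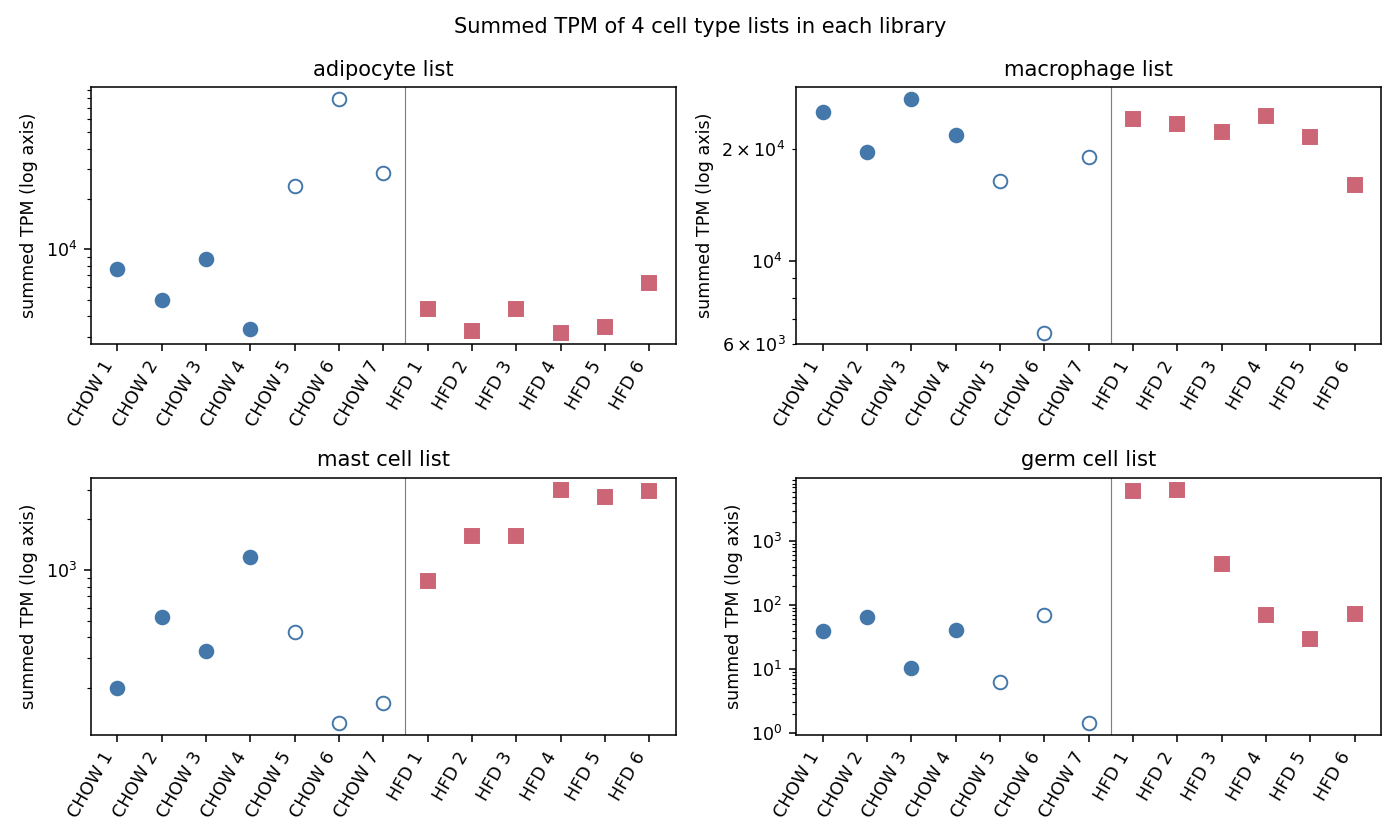
Summed TPM (log axis) of the adipocyte, macrophage, mast cell and germ cell lists in each of the 13 libraries, with CHOW as circles, CHOW 5, 6 and 7 as open circles and HFD as squares. The adipocyte sum reached 79094 TPM in CHOW 6, where the macrophage sum was lowest at 6445 TPM, and the mast cell sum of the HFD libraries lay between 858 and 3010 TPM against 124 to 1202 TPM in CHOW.

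Without CHOW 5, 6 and 7 no gene passed the adjusted threshold in limma, the lowest adjusted p being 0.121, while 1363 genes had an unadjusted p under 0.05. The 34 genes were all still higher on HFD there, each with an unadjusted p between 9.14e-05 and 0.00203, and each with a smaller log2 fold change (median 1.39 against 1.73). When the adipocyte score entered the fit as a covariate, the 34 were again all higher and none passed. The 34 were chosen in these same libraries, so their sign in these fits is not independent evidence. The number of calls also turned on single libraries and on the pseudocount, with 0 when CHOW 7, HFD 2 or HFD 4 was left out, 111 without CHOW 4, and 0 with a pseudocount of 0.1 TPM in place of 1. In bulk RNA, fewer cells of a type and less RNA per cell cannot be told apart.

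**Figure D2:**
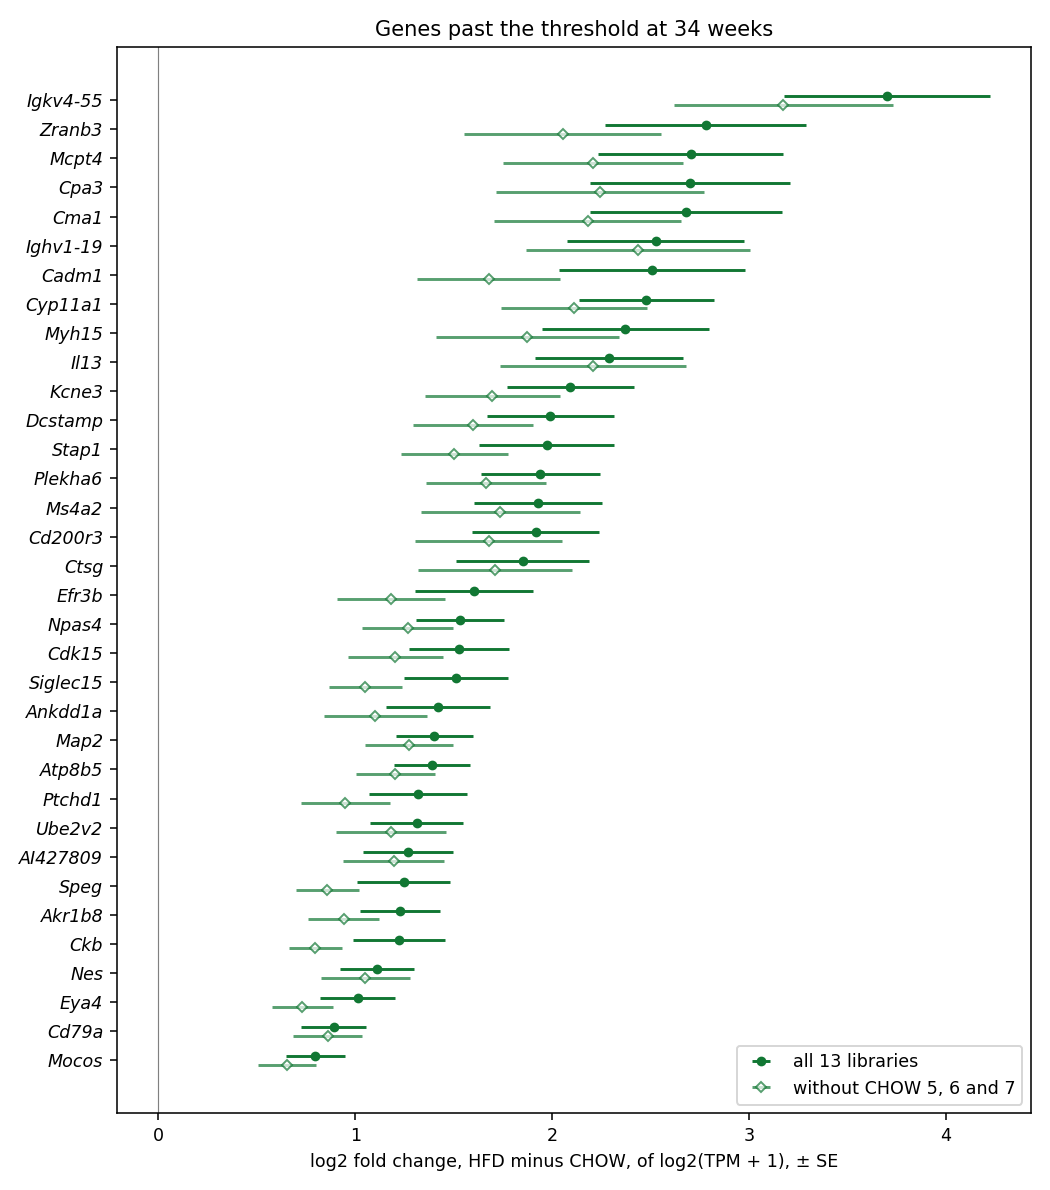
Log2 fold change ± SE, HFD minus CHOW on log2(TPM + 1), of the 34 genes past the threshold, with all 13 libraries (filled circles) and without CHOW 5, 6 and 7 (open diamonds). Every diamond lies to the left of its circle and to the right of 0, from 0.65 for Mocos to 3.17 for Igkv4-55.

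Of the 42 gene lists examined, the mast cell list had the most members among the 34. The members and lists were chosen with earlier results of these data known, so counts from this and the other lists are not independent evidence. Of 14 genes on the mast cell list, 13 could be tested and all 13 were higher on HFD with an unadjusted p under 0.05, a level that 9.69% of all tested genes reached in that direction. Mcpt4, Cma1, Cpa3 and Ms4a2 passed the adjusted threshold. The median log2 fold change of the 13 was 1.93, and it was 1.70 without CHOW 5, 6 and 7, where 12 of the 13 had an unadjusted p under 0.05 (5.92% of all genes). Mrgprx2 was too low for the test, with at most 5.27 TPM.

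Mcpt4 and Cma1 encode the chymases of connective tissue mast cells, and both lie with the granule protease gene Ctsg on chromosome 14, between positions 55941451 and 56102574 of GRCm38. Mcpt4 had a median of 96.4 TPM in CHOW (28.5 to 246) and 556 TPM on HFD (235 to 769.6). The highest CHOW library, CHOW 4 at 246 TPM, lay above the lowest HFD library, HFD 1 at 235 TPM, and no other libraries crossed. The log2 fold change of Mcpt4 was 2.71 ± 0.47 (SE, n = 7 and 6, limma adjusted p = 0.0395), and 2.21 ± 0.46 without CHOW 5, 6 and 7.

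Cma1 had a median of 69.1 TPM in CHOW (26.8 to 279) and 548 TPM on HFD (231 to 749). Here CHOW 4 lay above HFD 1 only, as for Mcpt4. The log2 fold change was 2.68 ± 0.49 (limma adjusted p = 0.0460), or 2.18 ± 0.47 without the 3 libraries. Cpa3 encodes carboxypeptidase A3, the protease stored in the same granules, and had a median of 35.2 TPM in CHOW (10.0 to 128) and 239 TPM on HFD (87.0 to 362). Its log2 fold change was 2.70 ± 0.51 (limma adjusted p = 0.0481), or 2.24 ± 0.53 without the 3 libraries.

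Ms4a2 encodes the β chain of FcεRI. It was a low gene, with a median of 0.78 TPM in CHOW (0.48 to 4.22) and 8.28 TPM on HFD (2.88 to 10.6). CHOW 4 again reached into the HFD range, and the log2 fold change was 1.93 ± 0.33 (limma adjusted p = 0.0358), or 1.74 without CHOW 5, 6 and 7. The α chain gene Fcer1a had a log2 fold change of 2.27 and did not pass (limma adjusted p = 0.112), and it was 1.70 without the 3 libraries.

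The tryptase gene Tpsb2 had the largest log2 fold change of the list, 2.72 ± 0.53, with an adjusted p of 0.058 in limma that missed the threshold, and the second tryptase gene Tpsab1 stood at 2.53 (0.134). They were 2.11 and 1.90 without CHOW 5, 6 and 7. Mrgprb2, the receptor through which basic secretagogues activate mouse mast cells, stood at 1.79 (0.0749). The genes for making and storing amines were at 1.76 for Hdc, the histidine decarboxylase that makes histamine, at 1.87 for Tph1, which makes serotonin, and at 1.67 for the vesicular transporter gene Slc18a2. Kit, the receptor for stem cell factor, was at 1.45 and the transcription factor gene Gata2 at 0.88, the lowest of the list. Tph1 was at 1.19, Kit at 1.02 and Gata2 at 0.74 without CHOW 5, 6 and 7. Kit is also used by other cells, and Gata2 by endothelial cells.

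Within each diet the mast cell genes varied together by library. All 13 tested genes were lowest among HFD libraries in HFD 1, and 11 of the 13 were highest among CHOW libraries in CHOW 4. HFD 1 and HFD 2 were also the libraries with germ cell RNA. Without them all 34 genes, which had been chosen with them in the fit, were still higher on HFD, 13 of them past the threshold.

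**Figure D3:**
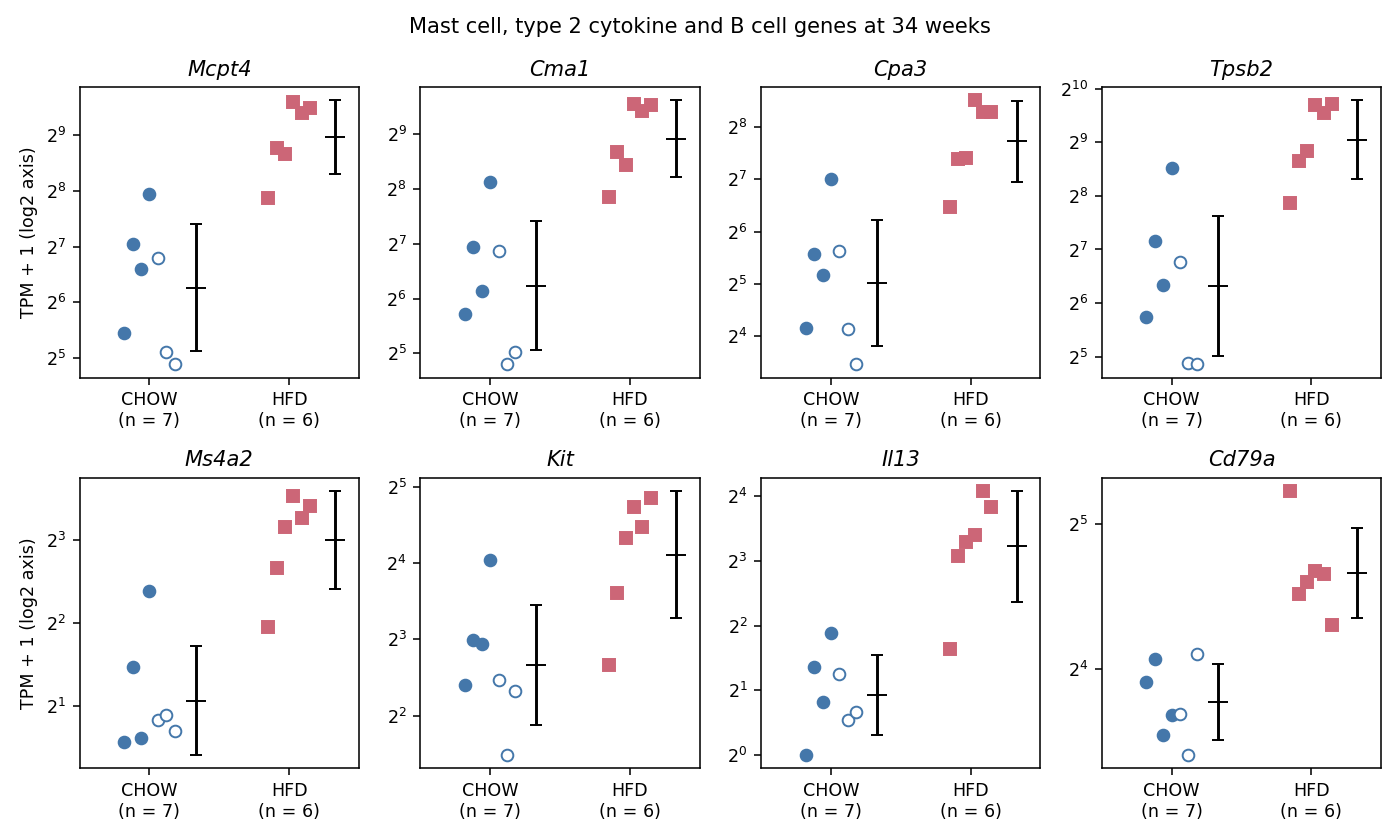
TPM + 1 on a log2 axis for 6 mast cell genes, Il13 and Cd79a in 7 CHOW libraries (circles, CHOW 5, 6 and 7 open) and 6 HFD libraries (squares), with the mean ± SD of log2(TPM + 1) as bars. In the mast cell panels HFD 1, drawn as the leftmost square, is the lowest HFD library and CHOW 4 the highest CHOW library, while for Cd79a the lowest HFD library (18.7 TPM) lay above the highest CHOW library (16.2 TPM).

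The promoters of the 4 mast cell genes are shown because these genes moved together, as the 250 bases before the start site in RefSeq (GRCm38.p6), 5′ to 3′ on the strand of the gene. Capitals mark AGATAA or its reverse complement TTATCT, a core that GATA factors bind. It was found in the windows of Cpa3 (1 match) and Ms4a2 (3 matches) and not in those of Mcpt4 and Cma1. Among all 32851 RefSeq promoter windows of this length 9.99% held it, and 6.15% of the windows of tested genes. Only this form of the GATA site was searched for, so windows without it are not shown to lack other forms. TCATGTG, an element bound by MITF, and its reverse complement were in none of the 4 windows and in 3.25% of all windows. The motifs do not overlap one another in these windows.
Mcpt4 (chr14:56062311-56062560, minus strand): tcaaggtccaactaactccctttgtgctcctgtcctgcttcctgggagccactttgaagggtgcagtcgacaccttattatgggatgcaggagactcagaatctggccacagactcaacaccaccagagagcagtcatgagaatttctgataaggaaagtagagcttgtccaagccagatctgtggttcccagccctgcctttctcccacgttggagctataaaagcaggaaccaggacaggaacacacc
Cma1 (chr14:55944676-55944925, minus strand): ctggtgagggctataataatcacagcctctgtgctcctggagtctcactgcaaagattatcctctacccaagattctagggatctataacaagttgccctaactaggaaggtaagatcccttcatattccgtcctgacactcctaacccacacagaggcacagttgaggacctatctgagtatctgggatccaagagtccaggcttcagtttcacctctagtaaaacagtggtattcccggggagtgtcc
Cpa3 (chr3:20242182-20242431, minus strand): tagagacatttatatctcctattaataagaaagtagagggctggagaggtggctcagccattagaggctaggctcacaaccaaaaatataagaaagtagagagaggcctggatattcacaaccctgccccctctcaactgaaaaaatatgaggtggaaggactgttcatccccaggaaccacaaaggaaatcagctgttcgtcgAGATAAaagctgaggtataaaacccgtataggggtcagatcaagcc
Ms4a2 (chr19:11623720-11623969, minus strand): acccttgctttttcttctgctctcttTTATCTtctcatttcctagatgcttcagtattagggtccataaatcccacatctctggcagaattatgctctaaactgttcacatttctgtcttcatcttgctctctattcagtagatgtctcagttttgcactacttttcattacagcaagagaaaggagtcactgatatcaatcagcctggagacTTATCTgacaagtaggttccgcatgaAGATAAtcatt

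Of the 9 tested genes of the eosinophil and type 2 list, Il13 was among the 34. Il13, the type 2 cytokine that acts on macrophages and epithelium, was listed at 0 in CHOW 1 and reached 2.68 TPM at most in CHOW, with a median of 0.76 TPM. On HFD its median was 9.19 TPM (2.13 to 15.9), so that only HFD 1 lay within the CHOW range. Its log2 fold change was 2.29 ± 0.38 (limma adjusted p = 0.0358), and 2.21 ± 0.47 without CHOW 5, 6 and 7. Il4, the partner cytokine that drives IgE switching, stood at 1.63 ± 0.39 and did not pass (limma adjusted p = 0.126). The list had a median of 0.38 (0.30 without CHOW 5, 6 and 7), with 6 of the 9 genes above 0 and 3 below. At an unadjusted p under 0.05, 4 were higher (9.69% of all genes), and 4 without the 3 libraries (5.92% of all genes). Prg2 stood at 0.90 (1.00 without the 3 libraries) and Il1rl1 at 1.32 (1.17), and neither passed. Retnla, a marker of alternative macrophage activation, was at -1.16 (-0.48 without the 3 libraries), and the eosinophil lectin gene Siglecf at -0.02. Il5, Il5ra and the eosinophil peroxidase gene Epx were too low to test, at up to 1.02, 1.56 and 0.06 TPM.

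Cyp11a1, Cd200r3 and Ctsg belonged to none of the lists. Cyp11a1 encodes the side-chain cleavage enzyme that starts steroid synthesis from cholesterol. It had a median of 1.56 TPM in CHOW (0.54 to 4.27) and 13.9 TPM on HFD (6.72 to 22.7), with no overlap. Its log2 fold change was 2.48 ± 0.34 (limma adjusted p = 0.0171), or 2.11 without CHOW 5, 6 and 7, and it passed in 9 of the 13 fits that each left out 1 library, as did Igkv4-55 and Map2. Cd200r3, an activating receptor of mast cells and basophils, was at 0.83 ± 0.92 TPM in CHOW and 5.67 ± 2.42 TPM on HFD (SD, n = 7 and 6), and Ctsg, cathepsin G, at 0.70 ± 0.62 and 5.39 ± 3.02 TPM. Neither gene's diets overlapped, and both passed.

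Of the 14 tested genes of the B cell list, Cd79a passed. Cd79a, the signalling chain of the B cell receptor, had a median of 11.9 TPM in CHOW (9.61 to 16.2) and 23.7 TPM on HFD (18.7 to 36.5). No libraries overlapped, and the log2 fold change of 0.89 ± 0.16 passed (limma adjusted p = 0.0461). It was 0.86 ± 0.17 without CHOW 5, 6 and 7. All 14 had a log2 fold change above 0, as did 9031 of the 13982 genes tested, and 9 of them had an unadjusted p under 0.05 (9.69% of all genes in that direction). Their median was 0.61, and leaving out CHOW 5, 6 and 7 gave 0.48, with 13 above 0 and 7 at that p (5.92% of all genes). Ms4a1, which encodes CD20, stood at 0.64 (limma adjusted p = 0.249).

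Among antibody genes, the variable segments Igkv4-55 and Ighv1-19 passed. Igkv4-55 had a median of 12.2 TPM in CHOW (2.85 to 19.9) and 135 TPM on HFD (44.4 to 368), and Ighv1-19 a median of 2.00 TPM (0 to 5.08) and 12.5 TPM (6.70 to 39.3). Neither overlapped between diets. Of 147 variable segments tested, 127 had a log2 fold change above 0 (9031 of 13982 for all genes), 32 of them with an unadjusted p under 0.05 (9.69% of all genes) and none of the lower ones, and the median was 0.86. Leaving out CHOW 5, 6 and 7 gave 0.83, with 18 segments higher at that p (5.92% of all genes).

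Variable segments are close copies of each other, and 78.2% of the 31-base words of Igkv4-55 and 51.2% of those of Ighv1-19 were also found in transcripts of other genes, so reads may have been split among them. For 32 of the 34 genes that share was under 20%. It was 12.2% for Mcpt4, 10.6% for Cma1, 0 for Cpa3 and Il13, and 17.5% for Ckb. Of 17 tested genes of the plasma cell and immunoglobulin constant list, 15 were above 0 and 2 below, and none passed. At an unadjusted p under 0.05, 3 were higher and 1 lower (9.69% and 3.53% of all genes). Their median was 0.73, or 0.50 without CHOW 5, 6 and 7. Ighg3 was the lowest at -0.63. Ighg2c, an IgG isotype of C57BL/6 mice, was the highest at 2.07 ± 0.44 (limma adjusted p = 0.0749), or 1.68 without the 3 libraries. Jchain, which joins secreted IgM and IgA, was at 1.05 (0.383).

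T cell genes had small differences. All 18 tested members lay above 0, as did 9031 of all 13982 genes, with a median of 0.47, and 2 had an unadjusted p under 0.05, a count near the 9.69% of all genes. Without CHOW 5, 6 and 7 the median was 0.21, 14 lay above 0 and none had an unadjusted p under 0.05. In the cytotoxic list the granzyme genes went apart, with Gzmb at 1.78 ± 0.37 (limma adjusted p = 0.0749), Gzmk at 1.14 and Gzma at -0.75, and none passed.

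The general macrophage list summed to a median of 19676 TPM in CHOW and 22798 TPM on HFD, and none of its 16 tested genes passed. Their median log2 fold change was 0.32 with all libraries and -0.15 without CHOW 5, 6 and 7, so its sign depended on these 3 libraries. Adgre1, which encodes F4/80, had a median of 247 TPM in CHOW (74.1 to 419.8) and 360.0 TPM on HFD (261 to 525), a log2 fold change of 0.86 (limma adjusted p = 0.292) that was 0.30 without the 3 libraries. The lowest value was that of CHOW 6.

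None of the 16 tested genes of lipid-associated macrophages passed the adjusted threshold. Of these, 9 had an unadjusted p under 0.05 and were higher on HFD (9.69% of all genes), and 4 did not overlap between diets (0.737% of all genes). Their median of 0.84 was 0.37 without CHOW 5, 6 and 7, where 8 were higher with an unadjusted p under 0.05 (5.92% of all genes). Mmp12, macrophage elastase, had a median of 159.7 TPM in CHOW (19.02 to 496) and 946 TPM on HFD (641 to 1058), with a log2 fold change of 2.75 ± 0.66 (limma adjusted p = 0.127), or 1.66 without the 3 libraries. Itgax, the integrin CD11c, had a median of 28.3 TPM in CHOW (3.44 to 84.4) and 144 TPM on HFD (103 to 169.7), with a log2 fold change of 2.42 ± 0.56 (limma adjusted p = 0.112), or 1.46 without them. Neither gene overlapped between diets, nor did Lpl, lipoprotein lipase, which had the lowest p of the list. Its log2 fold change was 0.95 ± 0.19 (limma adjusted p = 0.0600), or 0.87 without the 3 libraries.

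The members of that list did not all behave alike. Cd9 was at 1.18 with no overlap (0.68 without CHOW 5, 6 and 7) and Ctsk, cathepsin K, at 1.51 (0.91), while the lipid receptor gene Trem2 was at 1.06 (0.45). Spp1, osteopontin, was at 0.24 with all libraries and at -0.96 without the 3, with values from 10.7 TPM in CHOW 6 to 1399.5 TPM in HFD 1. Fabp5, a fatty acid binding protein, was at -0.50.

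Dcstamp and Siglec15, which are needed for cell fusion and signalling in osteoclasts and multinucleate macrophages, were among the 34. Dcstamp had a median of 1.74 TPM in CHOW (0.26 to 5.62) and 10.3 TPM on HFD (7.66 to 13.3). Siglec15 had a median of 0.95 TPM in CHOW (0 to 2.34) and 4.04 TPM on HFD (3.01 to 5.02). Neither overlapped, and their log2 fold changes were 1.99 ± 0.32 and 1.51 ± 0.26 (limma adjusted p = 0.0358 and 0.0395). Without CHOW 5, 6 and 7 they were 1.60 and 1.05.

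Of the 12 tested genes of the perivascular list 11 had a log2 fold change below 0, 6 of them with an unadjusted p under 0.05 (3.53% of all genes), and none passed. Their median was -1.01 and -0.55 without CHOW 5, 6 and 7, where 2 had such a p (3.83% of all genes were lower at that level). The lectin genes Cd209a and Cd209b were both at -1.59 (-1.20 and -0.90 without the 3 libraries), the scavenger receptor gene Cd163 of the general list was at -1.54, and the folate receptor gene Folr2 stood apart at 0.71. Cd209a had a median of 35.0 TPM in CHOW (3.88 to 46.6) and 7.61 TPM on HFD (4.83 to 23.1), and the lowest CHOW library was CHOW 4.

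**Figure D4:**
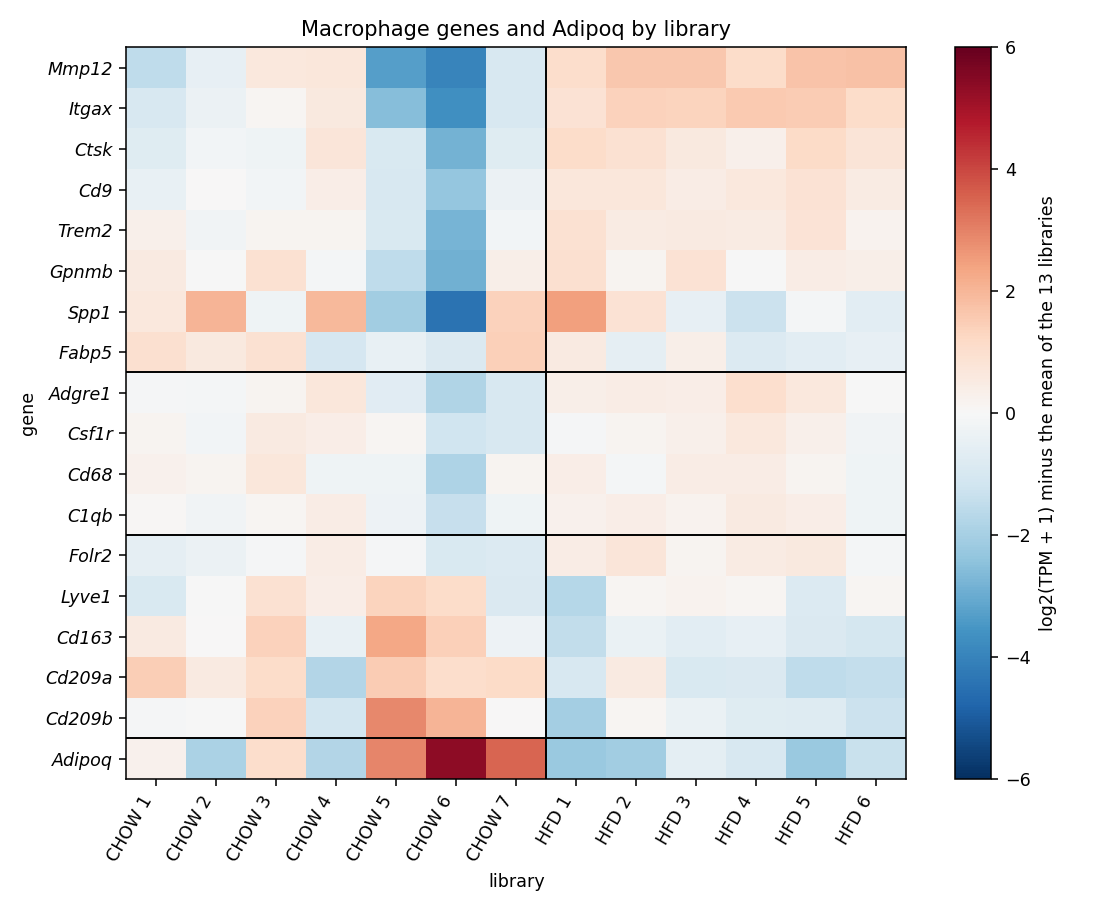
Log2(TPM + 1) minus the mean of the 13 libraries for genes of lipid-associated (top block), general (second block) and resident macrophages (the next block) and for Adipoq (bottom row). Mmp12 and Itgax were higher in each HFD library than in any CHOW library, with the lowest values in CHOW 6 (19.02 and 3.44 TPM), the library with the most Adipoq (5439 TPM).

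No monocyte, neutrophil or interferon-response gene of the lists passed the test. Of 10 monocyte genes 8 were below 0 and 2 above, and 1 was lower with an unadjusted p under 0.05 (3.53% of all genes). Their median was -0.58 (-0.83 without CHOW 5, 6 and 7, with 4 lower at that p against 3.83% of all genes), and the chemokine receptor gene Ccr2 was at -0.79. The 6 tested neutrophil genes were all below 0, 1 of them at that p, with a median of -1.17. Without the 3 libraries it was -1.08, with 4 at that p. Of 14 interferon-response genes 13 were below 0 and 7 had an unadjusted p under 0.05 (3.53% of all genes), with a median of -0.73. Without the 3 libraries it was -0.86, again with 7 at that p (3.83% of all genes). Ifit3 was at 208 TPM in CHOW 2 and 82.0 TPM in CHOW 7, against 24.03 to 35.5 TPM in the other CHOW libraries and 10.9 to 32.3 TPM on HFD.

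The cell adhesion gene Cadm1 and the DNA annealing helicase gene Zranb3 had 2 of the larger differences outside these groups. Cadm1 had a median of 7.94 TPM in CHOW (3.46 to 46.9) and 60.9 TPM on HFD (54.5 to 85.9), without overlap. Zranb3 had a median of 2.13 TPM in CHOW (0.94 to 25.6) and 32.4 TPM on HFD (25.0 to 41.4), with overlap only of CHOW 4 and HFD 6. Their log2 fold changes were 2.51 ± 0.47 and 2.78 ± 0.51, and 1.68 ± 0.37 and 2.06 ± 0.50 without CHOW 5, 6 and 7.

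Of the remaining genes, 3 encode enzymes of small molecule metabolism. Ckb, the brain-type creatine kinase, was at 106 ± 41.2 TPM in CHOW and 233 ± 30.9 TPM on HFD (SD, n = 7 and 6). Akr1b8, an aldo-keto reductase that clears aldehydes, was at 78.7 ± 25.6 and 180 ± 35.8 TPM, and Mocos, the molybdenum cofactor sulfurase that activates xanthine dehydrogenase, at 17.8 ± 3.33 and 31.6 ± 5.45 TPM. None of the 3 overlapped between diets, and their log2 fold changes were 1.22, 1.23 and 0.80, or 0.80, 0.94 and 0.65 without CHOW 5, 6 and 7.

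Of the rest, Ube2v2, a ubiquitin-conjugating enzyme variant, was at 35.6 ± 11.3 TPM in CHOW and 90.9 ± 29.9 TPM on HFD, and Stap1, a signalling adaptor of immune cells, at 12.5 ± 7.83 and 45.7 ± 10.6 TPM. The intermediate filament gene Nes (nestin) was at 9.44 ± 1.91 and 21.9 ± 6.48 TPM, and the muscle kinase gene Speg at 13.4 ± 5.08 and 31.5 ± 6.20 TPM. Plekha6, the potassium channel subunit gene Kcne3, Efr3b, the long non-coding RNA AI427809 and the myosin gene Myh15 had means of 8.40 to 17.7 TPM on HFD. The other genes, Npas4, Cdk15, Ankdd1a, Map2, Atp8b5, Ptchd1 and Eya4, had means of 3.00 to 6.01 TPM on HFD and 0.39 to 1.86 TPM in CHOW. Of these 7, Atp8b5, which encodes a phospholipid flippase, passed in 10 of the 13 fits without 1 library, the most of all 34 genes. Atp8b5 reached 1 TPM in every HFD library but in CHOW only in CHOW 4 (1.08 TPM), so it met the filter through its HFD values. Map2 and Npas4 likewise reached 1 TPM in every HFD library and, among CHOW, only in CHOW 2 (1.15 and 1.01 TPM).

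No gene lower on HFD passed. The 10 protein coding genes of lowest p in that direction with at least 5 TPM in CHOW had adjusted p-values from 0.0669 to 0.126 in limma. Of these, 5 did not overlap (0.200% of all genes were lower without overlap), a count that the choice by p favors. Hcar2, the receptor for nicotinate and β-hydroxybutyrate, had a median of 21.4 TPM in CHOW (7.16 to 64.1) and 4.06 TPM on HFD (2.94 to 5.95), a log2 fold change of -2.11 ± 0.43. Paox, a polyamine oxidase, was at -1.24 with no overlap (-0.90 without CHOW 5, 6 and 7), and Angptl4, an inhibitor of lipoprotein lipase, at -1.45. Both Hcar2 and Angptl4 are also adipocyte genes, and without CHOW 5, 6 and 7 they stood at -1.34 and -1.12. Ltc4s, the leukotriene C4 synthase, was at -1.43 (-1.11 without the 3 libraries), Ifitm6 at -1.56 (-1.66), Msrb1 at -0.88 (-0.74) and Lgals3bp at -0.87 (-0.75). 1600014C10Rik was at -1.37 (-0.82) and the matrix gene Ccdc80 at -0.83 (-0.65).

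A panel of matrix and fibrosis genes had also been measured by qPCR in these fractions. All 18 could be tested here and none passed in either direction. Their median log2 fold change was -0.18, with 4 lower and 1 higher at an unadjusted p under 0.05 (3.53% and 9.69% of all genes). Without CHOW 5, 6 and 7 the median was -0.43, and 6 were lower at that p (3.83% of all genes) and none higher. The study selected the panel as matrix and remodeling genes and measured it in these fractions, so its direction is not independent evidence. Sparc, a collagen-binding matrix protein, had a median of 1661 TPM in CHOW (1391 to 3562) and 939 TPM on HFD (692 to 1389.8). It had no overlap by a narrow margin and was at -0.99 (limma adjusted p = 0.126), or -0.83 without the 3 libraries. Fn1, fibronectin, was at -0.65 with all libraries and -0.95 without the 3, Acta2, smooth muscle actin, at -0.83 and -0.98, and Col1a1 at -0.63 and -1.10. The connective tissue growth factor gene Ccn2 was at -1.07 and -2.19, with its highest value of 241 TPM in CHOW 4. Tgfbr1 was the highest of the panel at 0.76 (0.23 without the 3 libraries).

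**Figure D5:**
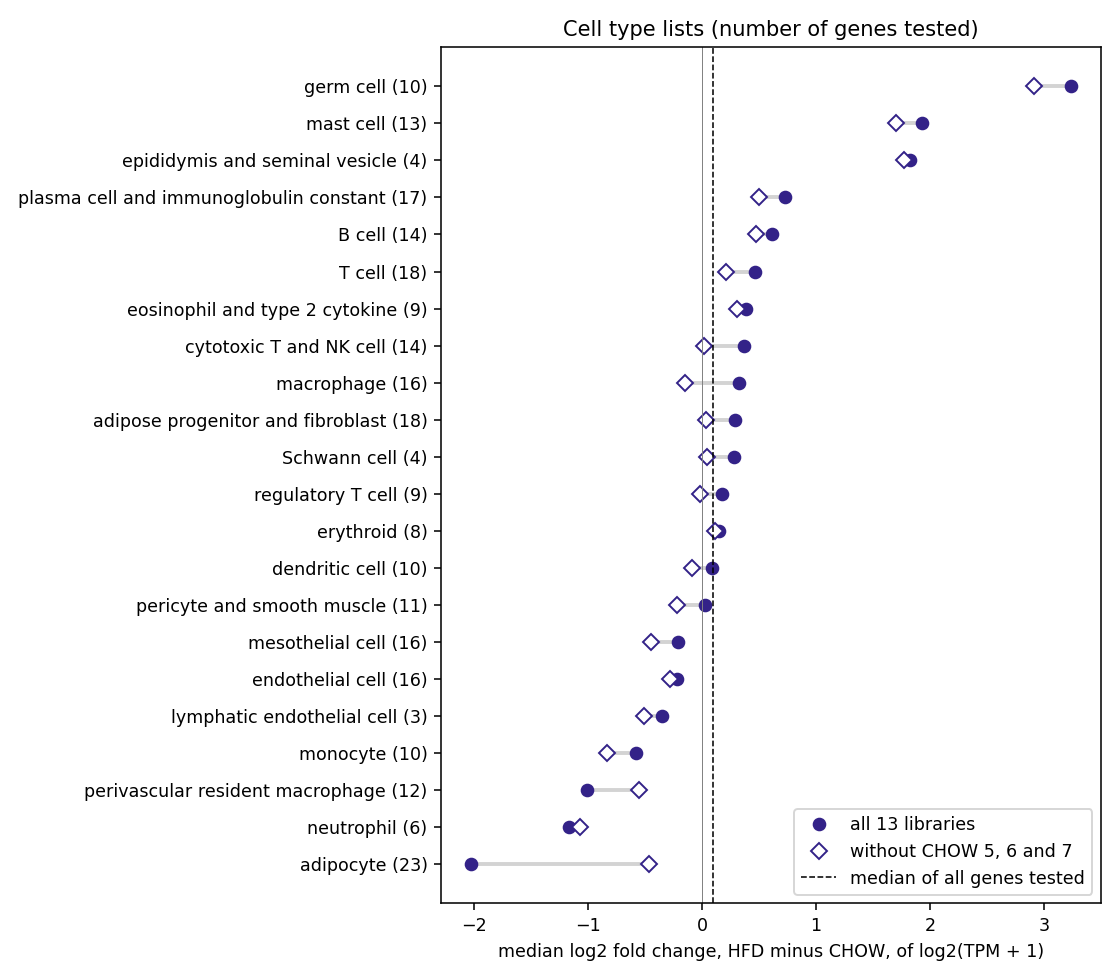
Median log2 fold change, HFD minus CHOW on log2(TPM + 1), of the tested genes of each cell type list with all 13 libraries (circles) and without CHOW 5, 6 and 7 (open diamonds), with the median of all genes (0.10) as a dashed line. The mast cell list stood at 1.93 and 1.70, the adipocyte list at -2.03 and -0.46, and the macrophage list crossed 0.

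No gene passed in the lists of structural cells and collagens. The median was 0.29 for adipose progenitors and fibroblasts (0.03 without CHOW 5, 6 and 7). For endothelial cells it was -0.22, with 15 of 16 genes below 0 and 2 lower at an unadjusted p under 0.05 (3.53% of all genes), and -0.28 without the 3 libraries, with 14 below 0. For mesothelial cells it was -0.21, with 13 of 16 below 0, and -0.45 without the 3 libraries, with all 16 below 0 and none at such a p. For collagen chains it was -0.14, with 16 of 22 below 0 and 1 lower at such a p, and -0.39 without the 3 libraries, with 7 lower (3.83% of all genes). The cell cycle list had a median of 0.53, with 17 of 18 genes above 0, and 0.07 without CHOW 5, 6 and 7.

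Some of the genes past the threshold at 34 weeks are given here at the earlier times, from a table that was made separately and was not tested against this one. At 20 weeks Mcpt4 was at 499 ± 226 TPM on HFD (SD, n = 6) and 158 ± 29.97 TPM in CHOW (n = 5), and at 8 weeks at 49.3 ± 18.96 TPM on HFD (n = 6) and 116 ± 42.7 TPM in CHOW (n = 4). Cadm1 was at 54.8 ± 14.8 TPM on HFD and 6.90 ± 4.11 TPM in CHOW at 20 weeks, and at 8 weeks at 10.8 ± 7.05 TPM on HFD and 5.33 ± 0.65 TPM in CHOW. Il13 was at 5.76 ± 2.92 TPM on HFD and 5.10 ± 2.25 TPM in CHOW at 20 weeks, and at 8 weeks at 4.68 ± 3.82 TPM on HFD and 5.79 ± 5.05 TPM in CHOW.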

How the data were processed

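Per the labels, the authors trimmed reads with Trimmomatic, quantified them with Salmon against mm10 gencode M10 transcripts and deposited TPM values per gene. No source used here gives tool versions or read depth. The 34 week table was fitted alone. A gene was tested where 6 or more of the 13 libraries had 1 TPM or more, with limma 3.58.1 (R 4.3.3, 1 mean per diet, trended moderation, two-sided, Benjamini-Hochberg) on log2(TPM + 1), threshold 0.05. Symbols and coordinates came from gencode M21 (GRCm38) for 31791 of 32098 IDs. On data simulated with normal noise, all 200 genes given a log2 shift of 2 or 3 in either direction were recovered. Only genes of below-median spread were shifted, so smaller changes and more variable genes were not covered. Named genes were those called, the 10 lower protein coding genes of lowest p, the study's qPCR panel and, per list, the called, first 3 and 2 highest and lowest members. No gene was called without CHOW 5, 6 and 7, so none was named from that fit. The members and lists were chosen with earlier results of these data known. Alternatives are given in the closing section. The value of 1 gene of the lists is not reported here.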

Additional observations from a re-analysis of the deposited data

Results flagged for a closer look

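Single libraries stood apart from the rest of their diet in 7 of 152 groups examined (the log2 values of the 34 genes and the 42 list scores in each diet), by the gap to the next library as a share of the whole range. Chance flags about 1 in 20 groups. CHOW 6, the library with the most adipocyte RNA, was lowest for the macrophage list (0.682 of the range), the MHC class II presentation list (0.704) and the chemokine and receptor list (0.601). HFD 1 was highest for Akr1b8 (0.629) and lowest for the synaptic adhesion and axon guidance list (0.670). HFD 2 was highest for the monocyte list (0.679), and HFD 6 for the endothelial cell list (0.633).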

How the results depend on the processing

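The number of genes past the threshold depended on the processing. The log2 fold change of the 34 genes was above 0 in all 838 values under the 12 alternatives and the 13 fits without 1 library. These genes were chosen in the same libraries, so their constant sign is not independent evidence. For 25 of them no libraries overlapped between diets, so leaving libraries out could not turn the sign. The count was 34 as reported, 0 with a pseudocount of 0.1 TPM (1787 genes at an unadjusted p under 0.05), 7 with no filter, 7 with a filter at 5 TPM, 19 after quantile normalization (17 higher and 2 lower), 294 with sample quality weights (216 higher and 78 lower), 0 with the adipocyte score as a covariate (1250) and 0 without CHOW 5, 6 and 7 (1363). It was 32 with median-ratio scaling, under which the median over all genes went from 0.10 to -0.0022, 39 with adipocyte, erythroid, germ cell and mitochondrial genes left out, 35 with robust moderation and 28 without HFD 1 and 2. Leaving out 1 library gave 0 to 111 calls: 111 without CHOW 4 and 57 without HFD 1, but 0 without CHOW 7, HFD 2 or HFD 4, 1 without HFD 3, 4 without CHOW 5, 5 without CHOW 1 or HFD 5, 6 without HFD 6 and 13 without CHOW 3. The cause was not tested.

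With the replicate number as a block, which drops CHOW 7 for want of a partner, 0 genes passed in limma (1666 at an unadjusted p under 0.05). The correlation of the deviations of same-numbered libraries ranged from -0.010 to 0.214 and was over 0.1 in 3 of 6 pairs. Pairs of unlike number were not compared, so this cannot decide whether same-numbered libraries share more than a number. Of 1046 list medians under the alternatives 16 moved by more than 1 SD of the list score, and 304 of 6908 values of named genes turned their sign, none of them past the threshold in either fit.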

Other observations

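Complement, chemokine and iron genes held single members with large values and no call. In the complement list C7, a part of the membrane attack complex, stood at 1.47 (144 to 429 TPM on HFD, 45.5 to 359 TPM in CHOW) and at 0.81 without CHOW 5, 6 and 7, while the factor B gene Cfb stood at -0.69. Among 30 chemokine genes the receptor gene Ccr1 was at -1.42 and Cxcl14 at 1.63 (0.96 without CHOW 5, 6 and 7), and Cxcr5, the receptor that guides B cells to follicles, was at 0.88 (limma adjusted p = 0.104). The acute phase gene Hp, haptoglobin, which binds free hemoglobin and is also an adipocyte product, was at -2.45 (-1.11 without the 3 libraries). Tnf was at 0.84, Il1b at 0.90 and Il10 at 1.46, each with overlap between diets, and without the 3 libraries they were at 0.72, 0.57 and 0.66. With the adipocyte score as a covariate Il10 was at 0.20.

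The respiratory chain list of 22 nuclear-encoded genes had 21 members below 0 and a median of -0.35, which was -0.06 without CHOW 5, 6 and 7. In the lysosome list 19 of 24 genes lay above 0 with all libraries and 9 of 24 without these 3 libraries.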
